A study of Mus musculus with 3 samples.

Results

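Granule-low neutrophils were 1210 of 20950 cells kept from 3 mouse liver libraries, 233 in the control library, 633 in the floxed irradiated library and 344 in the irradiated library with deleted Gsdmd. Gsdmd encodes gasdermin D, the pore-forming protein of pyroptotic cell death. The control library (FL_control) came from liver of mice with floxed Gsdmd alleles and a genotype tag of WT that received no irradiation. The floxed irradiated library (FL_IR) came from mice of the same genotype that were given 30 Gy, with the liver taken 7 days later. The deleted irradiated library (dHep_IR) had the same exposure and interval in mice whose sample title places the Gsdmd deletion in hepatocytes, while the genotype tag reads gsdmd-ko without a cell type. All 3 groups derive from the floxed allele, so no unmodified wild-type liver was included. Age, the part of the body exposed, the Cre driver and the number of animals in each library were not given in the sources used here. With 1 library per group, no test between conditions could be made, and a difference between libraries cannot be told apart from a difference between animals or preparations.

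Gsdmd itself was at 95.8 CPM in members of the control (84 UMIs), 10.1 in FL_IR (49 UMIs) and 50.7 in the library labelled dHep_IR (167 UMIs). The library labelled as deleted was therefore not the lowest. A deletion placed in hepatocytes would leave the gene of neutrophils intact, and tags at the end of a transcript can lie outside a deleted part. The level in dHep_IR therefore does not check its label. Neither point bears on the low level in FL_IR, which is labelled as not deleted. In cells with both Csf1r and Ly6c2 UMIs, Gsdmd was at 61.4 CPM in the control, 3.59 in FL_IR and 50.6 in dHep_IR. T cells, given below, had the same order. Which irradiated library carries the deletion was not tested, and every comparison of dHep_IR with FL_IR rests on the titles. The title is used as the name of the group throughout.

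Cells were kept with at least 500 unique molecular identifiers (UMIs, counted transcript molecules), at least 250 genes and at most 25% mitochondrial UMIs. Members then had at least 2% of UMIs from S100a8 and S100a9, at least 1 UMI of Csf3r or Cxcr2, no UMI of Csf1r, Stab2 or Clec4f, and under 0.2% of UMIs from Ngp, Ltf and Camp. Cells that passed every other criterion but had 0.2% or more of the granule transcripts are called granule-rich here. The level of each of those genes is therefore set in part by the rule, and is given as a description only.

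Neutrophils are made in bone marrow, where the proteins of their secondary granules, such as neutrophilic granule protein (Ngp), lactoferrin (Ltf) and cathelicidin (Camp), are transcribed at intermediate stages and are stored while the transcripts disappear as the cell matures. S100a8 and S100a9 encode calprotectin, an abundant cytosolic protein of neutrophils, Csf3r encodes the receptor for granulocyte colony-stimulating factor, and Cxcr2 encodes the chemokine receptor that draws mature cells from marrow to inflamed tissue. Cxcr4 has the opposing role of retaining cells in marrow and is regained as circulating neutrophils age.

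The members had medians of 3510 UMIs and 1198 genes in the control, 7243 UMIs and 1629 genes in FL_IR, and 8126 UMIs and 1785 genes in dHep_IR. No cell barcode among members was shared between libraries. The neutrophil label was checked on a gene that the rule did not use. Retnlg, which encodes a resistin-like protein abundant in mouse neutrophils, was measured at 8855 counts per 1000000 UMIs (CPM) in control members, 43201 in FL_IR and 13859 in dHep_IR. In a reference of T cells from the same libraries (436, 90 and 176 cells, picked by T cell transcripts) it was at 2.08, 124 and 64.1 CPM. CPM here is the summed UMIs of a gene over the summed UMIs of the cells named, which weights each cell by its depth.

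A subset of members stood apart from the rest before any comparison. Over 7 monocyte genes (Ly6c2, Ccr2, Cx3cr1, Fn1, F13a1, Ms4a6c and Ms4a4c), 0 members of the control, 16 of FL_IR (2.53%) and 89 of dHep_IR (25.9%) held 30 or more UMIs, and in the latter library they supplied 46% of all UMIs of the members. In dHep_IR these cells had a median of 16549 UMIs and of 108 UMIs of the monocyte genes. Their Fn1 (fibronectin) was at 2572 CPM against 11.3 in the other members, and their F13a1 (coagulation factor XIII subunit) at 1162 against 46.2. Retnlg was at 176 CPM in them, 25528 in the other members and 18687 in granule-rich cells of that library. Csf3r and Cxcr2, which the rule used, were lower than in the other members in granule-rich cells too. In the same order, Csf3r was at 49.5, 633 and 114 CPM and Cxcr2 at 267, 723 and 347. Il1r2 was at 1205, 3055 and 1259 CPM. Of these 89 cells, 32 had 3 or more UMIs of cell cycle genes, as did 1 of the other 255. In dHep_IR the monocyte genes and Retnlg of this subset went against the neutrophil label, while the other members carried it. The 16 cells of FL_IR had a mixed profile, with Fn1 at 3211 CPM and Retnlg at 4957 against 44924 in the other members of that library. Of these 16 cells 5 were scored as doublets, as were 6 of the 89 in dHep_IR. The cut of 30 UMIs was placed after seeing the values, in a range that few cells occupied (0, 2 and 1 members had 15 to 29 such UMIs). Values without these cells, and without 1 control member in which hepatocyte genes exceeded 1% of UMIs (1 such member of FL_IR was already among the 16), are called filtered below and cover 232, 617 and 255 cells.

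**Figure D1:**
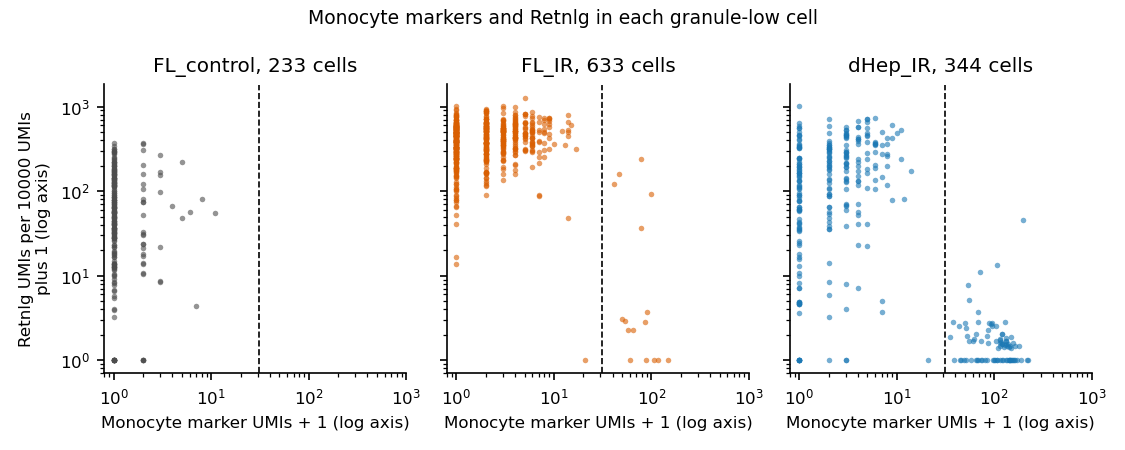
Each point is 1 granule-low cell of the library named above the panel; the horizontal axis is the UMIs over 7 monocyte genes plus 1, the vertical axis Retnlg UMIs per 10000 UMIs plus 1, both on log axes, and the dashed line marks 30 UMIs. Right of the line lie 0, 16 and 89 cells, and most of them sit at the bottom of the Retnlg scale.

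Granule-low cells made up 3.52% of kept cells in the control (exact 95% interval 3.09 to 3.99), 9.34% in FL_IR (8.65 to 10.05) and 4.56% in dHep_IR (4.10 to 5.05). All intervals given cover counting error only, and not the spread between animals. FL_IR had the highest share, and the share of dHep_IR lay above that of the control only while the monocyte-marker cells were counted. Without them the shares were 3.51%, 9.10% and 3.38%. Of all gated neutrophils, granule-low cells were 233 of 236 in the control (98.7%, 96.3 to 99.7), 633 of 1857 in FL_IR (34.1%, 31.9 to 36.3) and 344 of 1631 in dHep_IR (21.1%, 19.1 to 23.2). The control therefore held nearly no granule-rich cell (3 cells), while granule-rich cells were 18.1% and 17.0% of kept cells in the irradiated libraries. These shares are among cells recovered after dissociation and droplet capture, and a share of kept cells also depends on how many other cells each library held.

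**Figure D2:**
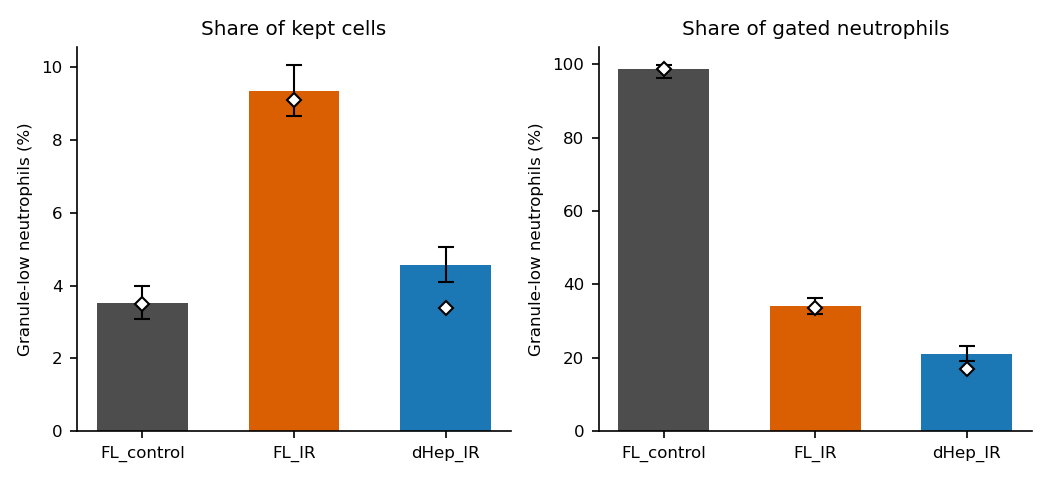
Bars give granule-low cells as a percentage of kept cells (left) and of gated neutrophils (right) in each library, with exact 95% intervals; open diamonds give the percentage without the monocyte and hepatocyte marker cells. FL_IR has the highest share of kept cells at 9.34%, and the control the highest share of gated neutrophils at 98.7%.

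The granule limit cut through a continuum in the irradiated libraries and not in the control, while the S100 and Csf1r criteria had cells just outside them in all 3 libraries. In the control 229 of 233 members had no UMI of Ngp, Ltf or Camp, against 145 of 633 in FL_IR and 128 of 344 in dHep_IR. Just inside the granule limit (0.1 to 0.2% of UMIs) lay 0, 138 and 47 members, and just outside it (0.2 to 0.4%) lay 0, 209 and 63 cells. Between 2 and 3% for S100a8 and S100a9 lay 12, 3 and 18 members, and 11, 9 and 14 cells were left out at 1 to 2%. The demand for no Csf1r UMI removed a further 110, 145 and 181 cells that met the granule limit. Of these, 109, 122 and 62 had under 30 monocyte UMIs, and their Retnlg (10379, 44441 and 21899 CPM) compares with 8952, 44924 and 25528 CPM in the filtered members defined above.

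FL_IR was compared with the control to ask what differed in these cells 7 days after irradiation. Of 5522 genes with at least 50 UMIs over both libraries, 439 were higher in FL_IR (7.95%) and 1012 were lower (18.3%), where a gene was called at a ratio of 2-fold or more whose exact 95% counting interval excluded 1. The median log2 ratio over all tested genes was -0.27. Scaling by trimmed mean of M-values (TMM) in place of the plain total moved that median to 0.21 and the calls to 899 higher (16.3%) and 479 lower (8.67%), so the split of higher against lower calls depended on the scaling, and each list is set beside the median of all genes. In filtered members 386 of 5331 genes were higher (7.24%) and 1009 lower (18.9%), and with TMM scaling 833 (15.6%) and 479 (8.99%). S100a8 and S100a9 took up more of the total in FL_IR. S100a8 was at 45439 CPM in the control, 120426 in FL_IR and 76220 in dHep_IR, and S100a9 at 68205, 121019 and 79956.

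Granule genes that the rule did not use were mostly higher in FL_IR than in the control. Leaving out Ngp, Ltf and Camp, which the rule caps, 9 of 15 tested genes of a secondary granule list were called higher in FL_IR. Only Lyz2 (lysozyme) was called lower. Of all genes 7.95% were called higher and 18.3% lower. The median log2 ratio of the list was 2.90 against -0.27 over all genes. With TMM scaling 12 were higher and 0 lower, against 16.3% and 8.67% of all genes. Lcn2, which encodes the iron-siderophore binder lipocalin 2, was at 1005 CPM in the control, 7524 in FL_IR and 7267 in dHep_IR, 7.49-fold higher in FL_IR (interval 7.00 to 8.01). Ifitm6, a transmembrane protein of the interferon-induced family, was at 126, 3518 and 3180 CPM, Wfdc21 at 650, 4935 and 3816, and Mmp8 (neutrophil collagenase) at 249, 1857 and 1823. Chil3, a chitinase-like protein of myeloid precursors, was at 3.42, 1531 and 6880 CPM, but filtered values were 3.47, 807 and 1407, since the monocyte-marker cells of dHep_IR held it at 13299 CPM. In all of these genes the control was lowest, and for Lcn2, Ifitm6, Wfdc21 and Mmp8 both irradiated libraries lay close together. Lyz2 was at 2084, 891 and 1756 CPM, and at 2102, 689 and 243 after filtering. Genes of tertiary granules and secretory vesicles did not follow. Of 11 tested, 1 was called higher and 1 lower in FL_IR, and Mmp9 (gelatinase B) was at 1863 CPM in the control and 1633 in FL_IR. Among members with no granule UMI at all and without marker cells (228, 137 and 88 cells), 8 of 14 tested secondary granule genes were still called higher in FL_IR and 2 lower, against 7.31% of 3092 genes called higher and 18.8% called lower. Lcn2 had a log2 ratio of 2.75 there.

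The stefins, intracellular cysteine protease inhibitors that mouse neutrophils express from a gene cluster, include several of the genes with high ratios. Stfa2 was at 6.85 CPM in the control, 1284 in FL_IR and 465 in dHep_IR, and Stfa3 at 3.42, 469 and 156. Cstdc5 was at 1.14, 2186 and 695 CPM, the first value resting on 1 UMI. Stfa2l1 was already at 572 CPM in the control and reached 2544 in FL_IR. Of 6 tested stefin and cystatin genes 4 were higher in FL_IR, against 7.95% of all genes called higher and 18.3% called lower. Cst3 (cystatin C, 1132 against 410 CPM) and Cstb (430 against 183) were lower, though not called so with TMM scaling. Stefin genes are near-identical copies of each other, so that reads of a 3' tag could be split among them, and single members of the cluster are uncertain. Of the other genes with the highest ratios, Ggt1 (gamma-glutamyltransferase), Adamtsl4 and the metallothionein Mt2 had no UMI in the control. Against a floor of 3 counts in the control, Ggt1 was at least 33.5-fold higher in FL_IR, Adamtsl4 at least 18.3-fold and Mt2 at least 24.8-fold. Of 8 tested metallothionein and acute phase genes 7 were called higher in FL_IR, against 7.95% of all genes, with a median log2 ratio of 3.18 against -0.27. After filtering 4 of 7 were called higher, against 7.24% of all genes, with a median of 2.01 against -0.29. The count thus depended in part on the cells left out. Mt1, the zinc and copper binding partner of Mt2, was at 14.8 CPM in the control, 737 in FL_IR and 1481 in dHep_IR. In the T cell reference Mt1 was at 13.1, 151 and 168 CPM, so it was also higher in the irradiated libraries outside the members.

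Among receptors and adhesion molecules, Cxcr4, Cd101 and Jaml were lower in both irradiated libraries, and Ly6g and Cd177 higher. Cxcr4 was at 1062 CPM in the control, 114 in FL_IR and 83.2 in dHep_IR, 9.30-fold lower in FL_IR (8.36 to 10.3). Cd101, a glycoprotein used as a marker of mature marrow neutrophils, was at 133, 2.67 and 1.82 CPM. Jaml, a junctional adhesion molecule used in transmigration, was at 495, 21.3 and 92.0 CPM, and at 34.3 in filtered dHep_IR. Itga4 (202, 59.9 and 56.8 CPM) and Itgal (395, 145 and 94.5), which encode the VLA-4 and LFA-1 alpha chains of integrins, were lower in both irradiated libraries. Ly6g, the surface antigen that defines mouse neutrophils, was at 45.6, 411 and 229 CPM, and its relative Cd177 at 33.1, 416 and 410 CPM. Of the receptors the rule used, Csf3r was at 2432, 558 and 364 CPM, and Cxcr2 at 905, 761 and 513 (914, 778 and 723 filtered). Without Csf3r and Cxcr2, 6 of 22 receptor genes were called lower in FL_IR and 3 higher, against 18.3% and 7.95% of all genes. Their median log2 ratio of -0.33 was close to the -0.27 of all genes. With TMM scaling 2 were lower and 7 higher, against 8.67% and 16.3% of all genes, with a median of 0.15 against 0.21. In cells thinned to 1000 UMIs each, to remove the difference in depth, Cxcr4 was seen in 60.3% of filtered control members, 10.7% in FL_IR and 11.02% in dHep_IR (87.5%, 41.7% and 33.3% before thinning). The T cell reference, which also expresses Cxcr4, gave 19.95%, 30% and 25.6% after thinning, so the order was not that of the T cells.

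**Figure D3:**
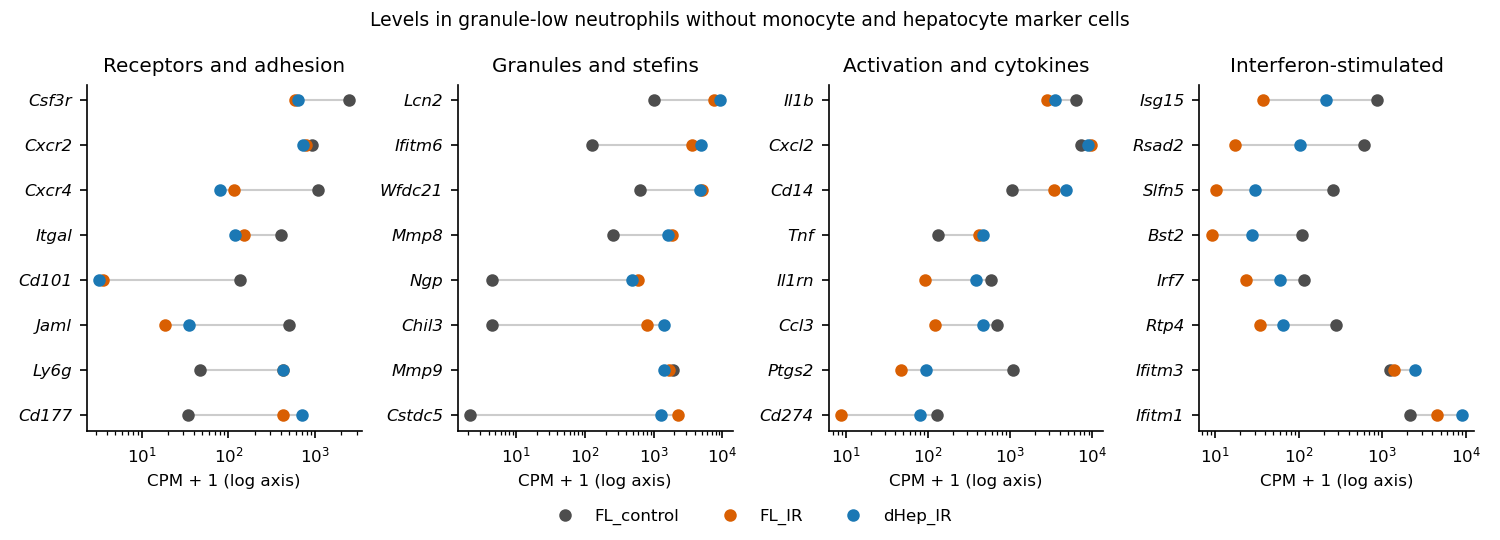
Points give CPM plus 1 on a log axis for 8 genes of 4 groups in filtered granule-low cells of each library, coloured by library. Cxcr4, Cd101, Ptgs2, Isg15, Rsad2 and Slfn5 are highest in FL_control, Lcn2, Ifitm6, Cd177 and Cstdc5 are lowest in it, and Cxcr2, Mmp9 and Cxcl2 nearly overlap.

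Interferon-stimulated genes, which cells transcribe after type I or type II interferon binds its receptor, were lower in FL_IR as a group. Of 35 tested genes of the list, 26 were called lower and 1 higher (Ifitm1), against 18.3% and 7.95% of all genes. The median log2 ratio was -1.97 against -0.27 over all genes. With TMM scaling 20 were lower and 1 higher, against 8.67% and 16.3% of all genes, with a median of -1.49 against 0.21. Isg15, a ubiquitin-like modifier, was at 857 CPM in the control, 35.3 in FL_IR and 120 in dHep_IR, 24.3-fold lower in FL_IR (20.6 to 28.8). Rsad2, which encodes the antiviral enzyme viperin, was at 601, 15.8 and 56.5 CPM, and Slfn5 at 253, 11.7 and 26.7. Bst2 (tetherin) was at 112, 9.44 and 25.5 CPM and Irf7, a transcription factor of the interferon loop, at 114, 21.95 and 38.3. In each of these genes the control was highest, FL_IR lowest and dHep_IR between them. The summed level of the list fell less than its median gene, from 0.962% of UMIs in the control to 0.751% in FL_IR, since Ifitm1 (2100 against 4347 CPM) and Ifitm3 (1245 against 1367) carry much of the sum. The order of the named genes did not hold for the list as a share of each cell. Its median over filtered cells was highest in dHep_IR, at 1.40%, against 0.828% in the control and 0.659% in FL_IR. Among members with no granule UMI and without marker cells, 19 of 28 tested genes of the list were called lower and 1 higher, with a median of -1.89, against 18.8% of 3092 genes called lower.

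The same direction was measured outside neutrophils. In cells with both Csf1r and Ly6c2 UMIs (41, 89 and 190 cells), which carry a monocyte profile, 17 of 23 tested interferon-stimulated genes were called lower in FL_IR and 0 higher, against 8.92% of 3845 genes called lower and 10.1% called higher. In the T cell reference the list took 0.278%, 0.184% and 0.203% of UMIs. Rsad2 was at 8.65, 6.55 and 12.4 CPM in T cells. In cells thinned to 1000 UMIs it was seen in 21.0% of filtered control members, 1.13% in FL_IR and 4.33% in dHep_IR (31.9%, 4.38% and 8.24% before thinning), against 0.917%, 1.11% and 0.568% of T cells. The thinned share of FL_IR members was thus close to that of T cells. For Isg15 the thinned shares were 35.8%, 3.40% and 9.84% of members against 13.3%, 5.56% and 10.2% of T cells, which express this gene themselves.

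Promoters are printed to show the sequence to which interferon-activated factors bind, the interferon-stimulated response element. They belong to the 3 genes with the lowest ratios of FL_IR over the control among genes of this list whose window held a match. The presence of a match in these 3 windows was thus fixed by the choice and is not a result. The 250 bases before the RefSeq start site are given 5' to 3' on the strand of the gene, in GRCm38.p6. Capitals mark each match of GAAANNGAAA or its reverse complement TTTCNNTTTC. Rsad2 lies on chr12:26456453-26456702, minus strand, Isg15 on chr4:156200819-156201068, minus strand, and Slfn5 on chr11:82951852-82952101, plus strand.
Rsad2: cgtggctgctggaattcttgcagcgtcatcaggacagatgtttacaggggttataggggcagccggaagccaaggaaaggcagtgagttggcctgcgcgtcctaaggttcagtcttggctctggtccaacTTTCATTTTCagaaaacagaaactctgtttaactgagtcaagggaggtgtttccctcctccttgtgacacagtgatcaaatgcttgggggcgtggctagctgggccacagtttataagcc
Isg15: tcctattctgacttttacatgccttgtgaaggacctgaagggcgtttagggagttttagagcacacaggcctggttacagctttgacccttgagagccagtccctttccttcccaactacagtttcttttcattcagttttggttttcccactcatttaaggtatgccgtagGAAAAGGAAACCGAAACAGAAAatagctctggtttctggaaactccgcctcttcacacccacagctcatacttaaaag
Slfn5: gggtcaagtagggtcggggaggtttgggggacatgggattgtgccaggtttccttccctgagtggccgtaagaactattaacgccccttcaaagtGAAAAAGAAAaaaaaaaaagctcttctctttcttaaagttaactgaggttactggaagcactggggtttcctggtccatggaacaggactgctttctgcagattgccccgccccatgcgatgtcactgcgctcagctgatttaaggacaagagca
The Rsad2 window holds 1 match, starting 120 bases before the start site, the Slfn5 window 1 match at 155 bases, and the Isg15 window 3 overlapping matches between 78 and 66 bases. Of all 27025 RefSeq genes with a window, 3.46% held a match on either strand, as did 17 of 44 interferon-stimulated genes with a window (38.6%) and 9 of 10 interferon-induced GTPases (90%). Of the genes of the list called lower in FL_IR, 9 of 21 with a window held one (42.9%), and of all genes called lower 5.04%. A match is a description of the letters, not a bound site.

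Genes of antigen presentation by class I molecules lay lower in FL_IR as well. Of 15 tested, 9 were called lower and 0 higher, against 18.3% and 7.95% of all genes, with a median log2 ratio of -1.09 against -0.27. With TMM scaling 4 were lower and 0 higher, against 8.67% and 16.3% of all genes, with a median of -0.61 against 0.21. B2m, the invariant light chain, was at 2359 CPM in the control, 439 in FL_IR and 682 in dHep_IR. H2-K1 was at 899, 232 and 271 CPM, and the T cell reference also had less of it in the irradiated libraries, at 2436, 1459 and 1468 CPM.

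More inflammatory activation genes were called lower in FL_IR than higher. Of 38 tested, 6 were called higher and 19 lower, against 7.95% and 18.3% of all genes, with a median log2 ratio of -1.01 against -0.27. With TMM scaling 6 were higher and 17 lower, against 16.3% and 8.67% of all genes, with a median of -0.52 against 0.21. The count of higher genes was near the share of all genes with that scaling. Ptgs2, which encodes the inducible cyclooxygenase of prostaglandin synthesis, was at 1074 CPM in the control, 46.0 in FL_IR and 99.6 in dHep_IR, 23.4-fold lower in FL_IR (20.2 to 27.2). Cd274, the checkpoint ligand PD-L1, was at 126, 7.39 and 50.7 CPM. The chemokines Ccl3 (678, 120 and 303 CPM) and Ccl4 (1046, 144 and 304) and the interleukin 1 receptor antagonist Il1rn (576, 89.2 and 214) were also highest in the control and lowest in FL_IR. Cd14, the lipopolysaccharide co-receptor, was at 1027, 3311 and 3059 CPM, and Tnf at 128, 401 and 262. Nos2, the inducible nitric oxide synthase, had 0 UMIs in the control against 255 in FL_IR and 174 in dHep_IR. Against a floor of 3 counts it was at least 15.3-fold higher in FL_IR. Il1b, the precursor of interleukin 1 beta, was at 6320, 2681 and 2129 CPM, 2.36-fold lower in FL_IR (2.28 to 2.43), but among members with no granule UMI its log2 ratio was -0.49 and it was not called. Cxcl2, a ligand of Cxcr2, was at 7110, 9264 and 5143 CPM and was not called.

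Immediate early and stress genes, which also respond to the dissociation of tissue, were lower in FL_IR members. Of 24 tested genes of a dissociation stress list, 11 were called lower and 0 higher, against 18.3% and 7.95% of all genes, with a median log2 ratio of -0.89 against -0.27. With TMM scaling 8 were lower and 0 higher, against 8.67% and 16.3% of all genes. The list took 2.77% of UMIs in the control, 1.07% in FL_IR and 1.04% in dHep_IR. The same list took 1.61%, 1.58% and 1.76% of the UMIs of T cells, a range of nearly level values. Its part in the lower activation genes was not tested. Gadd45b was at 2001, 128 and 240 CPM, and Dusp1, a phosphatase that ends kinase signalling, at 2954, 576 and 538. Atf3 was at 1268, 64.6 and 256 CPM, and at 1284, 39.2 and 30.96 after filtering.

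Of genes that bear on cell death, 8 of 21 survival and apoptosis genes were called lower in FL_IR and 3 higher, against 18.3% and 7.95% of all genes, with a median log2 ratio of -0.66 against -0.27. With TMM scaling 5 were lower and 4 higher, against 8.67% and 16.3% of all genes. Bcl2l1, which encodes the anti-apoptotic Bcl-xL, was at 14.8, 96.8 and 105 CPM, and Cflar, an inhibitor of caspase 8, at 58.2, 168 and 186. The pro-apoptotic Pmaip1 (Noxa) was at 237, 35.7 and 52.6 CPM. Of 14 inflammasome and pyroptosis genes 5 were lower and 1 higher, with a median of -0.60. With TMM scaling 4 were lower and 2 higher, against the same shares of all genes as for the survival genes. Pycard, the adaptor ASC, was the higher one at 21.7, 186 and 478 CPM (21.97, 169 and 242 filtered). Nlrp3, the sensor, was at 719, 245 and 265 CPM, and Ninj1, which ruptures the membrane of dying cells, at 396, 89.0 and 143. Gsdmd was 9.53-fold lower in FL_IR than in the control (6.63 to 13.9), and T cells had it at 29.8, 3.28 and 17.0 CPM. Of 18 p53 target genes, 3 were higher and 3 lower in FL_IR, with a median of -0.33, and with TMM scaling 6 were higher and 2 lower. Over all genes 7.95% were called higher and 18.3% lower, and with TMM scaling 16.3% and 8.67%. The share of p53 targets called lower and their median were near those of all genes. Their share called higher was larger than that of all genes with both scalings. Cdkn1a (p21) was at 38.8, 66.5 and 198 CPM, Mdm2 at 41.1, 64.8 and 75.3, and neither was called in FL_IR against the control, while Trp53inp1 was called higher at 82.1, 240 and 179 CPM.

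Transcripts of other cells were unequal between the libraries. Hepatocyte genes took 0.164%, 0.195% and 0.00835% of the UMIs of the members, B cell genes 0.0764%, 0.00148% and 0.00255%, and erythroid genes 0.298%, 0.000185% and 0.000699%, the control value of which came from 2609 UMIs in 49 cells, with 1 cell above 9 UMIs. The median hepatocyte share of a filtered cell was 0.0632% in the control and 0.0266% in FL_IR, the opposite order of the summed values. H2-Aa and H2-Ab1, chains of class II molecules that B cells and dendritic cells express, and the hepatocyte gene Mup11 are among the genes with the highest ratios of the control over FL_IR, at 124, 119 and 131 CPM in the control and 0, 0.205 and 0.821 in FL_IR. Impact, a regulator of translational stress, was at 140, 5.33 and 12.5 CPM and Arl4c, a small GTPase, at 102, 3.90 and 35.8. The part of other cells in these differences was not tested.

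**Figure D4:**
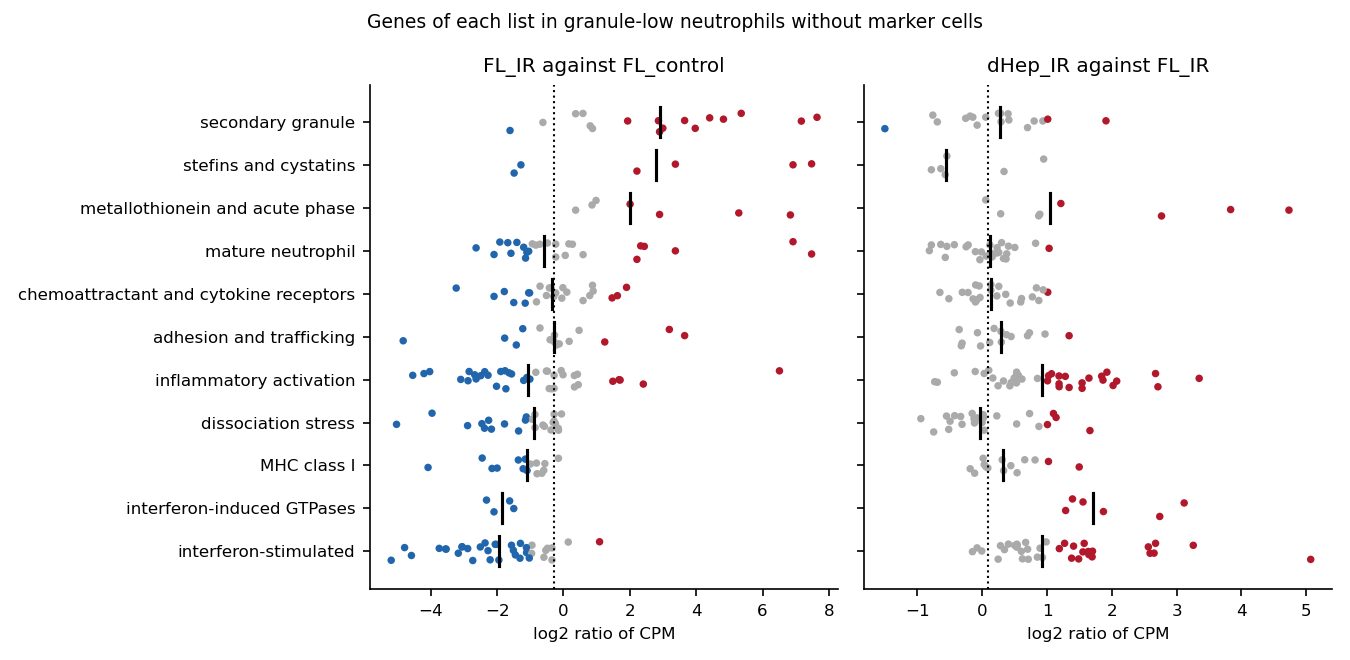
Each dot is 1 gene of 11 gene lists in filtered granule-low cells; the axis is the log2 ratio of FL_IR over FL_control (left) or dHep_IR over FL_IR (right), red and blue dots are genes called higher and lower, bars are list medians and the dotted line is the median of all genes tested. Interferon-stimulated genes lie mostly below the line on the left (median -1.95) and above it on the right (median 0.93).

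dHep_IR was compared with FL_IR to set the library with the labelled deletion beside the floxed one at the same exposure and time. With all members, 1323 of 6603 genes were called higher (20%) and 177 lower (2.68%), with a median of 0.32. Without the marker cells 301 of 5562 were called higher (5.41%) and 77 lower (1.38%), with a median of 0.09, so most calls were lost with these cells, and filtered values are used from here. TMM scaling of the filtered values gave 219 higher (3.94%) and 122 lower (2.19%), with a median of -0.05. The comparison uses the same FL_IR library as the one before, so the values of FL_IR enter both.

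Interferon-stimulated genes were higher in dHep_IR than in FL_IR. Of 37 tested, 17 were called higher and 0 lower, against 5.41% and 1.38% of all genes, with a median of 0.93. With TMM scaling the count was also 17, against 3.94% of all genes called higher. Among members with no granule UMI 12 of 18 were called higher and 0 lower, against 6.97% of 2423 genes called higher and 2.23% lower. Isg15 was at 36.2 CPM in FL_IR and 214 in dHep_IR, 5.92-fold higher (4.93 to 7.14), and Rsad2 at 16.5 and 104, 6.31-fold higher (4.81 to 8.34). Both stayed below the control, where filtered values were 869 and 606 CPM. Cxcl10, a chemokine for T cells, was at 22.5 and 144 CPM, and Ifi204, a DNA sensor, at 7.93 and 76.5. T cells had Cxcl10 at 14.7 and 225 CPM in these libraries, so this gene was also high outside the members. All 6 tested interferon-induced GTPases, which act on vacuoles of intracellular microbes, were called higher, among them Gbp2 (11.2 and 74.9 CPM), Ifi47 (5.57 and 49.0) and Irgm1 (11.4 and 41.7). The monocyte-profile reference moved the same way, with 23 of 42 interferon-stimulated genes called higher and 0 lower, against 5.3% of 6165 genes called higher and 2.48% lower. In granule-rich neutrophils 3 of 38 were called higher and 0 lower, against 2.49% of 8141 genes called higher and 1.88% lower.

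Activation genes were also higher in dHep_IR. Of 38 tested, 19 were called higher and 0 lower, against 5.41% and 1.38% of all genes, with a median of 0.93 against 0.09. With TMM scaling of filtered values 16 were higher and 0 lower, against 3.94% and 2.19%, with a median of 0.80 against -0.05. With all members 14 were higher and 1 lower, against 20% and 2.68% of all genes. TMM scaling of all members gave 4 higher and 4 lower, against 11.7% and 6.68%. Cd274 was at 7.72 CPM in FL_IR and 79.4 in dHep_IR, 10.3-fold higher (7.09 to 15.3). Il1rn was at 91.3 and 385 CPM, Ccl3 at 122 and 464, and Ccl4 at 148 and 463. Cxcl3, a ligand of Cxcr2, was at 284 and 1018 CPM and Clec4n, the lectin receptor dectin-2, at 24.2 and 155. For Cd274, Il1rn, Ccl3 and Ccl4 the filtered values were highest in the control and lowest in FL_IR. Among members with no granule UMI dHep_IR instead lay above the control for Ccl3, Il1rn and Cd274, with log2 ratios of 0.57, 0.14 and 0.19 that were not called. Cxcl3 instead was lowest in the control, at 100.6 CPM. Upp1 (uridine phosphorylase) had the same order as Cxcl3, at 19.7, 107 and 435 CPM. Il1b (2784 and 3495 CPM), Tnf (416 and 465), Cxcl2 (9619 and 8923) and Nos2 (52.5 and 53.5) were not called.

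In thinned cells Cd274 was seen in 13.1% of filtered control members, 0.972% in FL_IR and 8.27% in dHep_IR (25%, 4.38% and 23.1% before thinning), against 2.52%, 0% and 1.70% of T cells. Il1rn was seen in 33.2%, 10.05% and 29.1% (62.9%, 34.2% and 67.5% before thinning), and in 0% of thinned T cells of each library. The shares of cells followed the order of the CPM values for Cd274, and for Il1rn the unthinned share of dHep_IR was above that of the control.

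Acute phase and survival genes were among those with the highest ratios between the irradiated libraries. Saa3, an acute phase serum amyloid that myeloid cells also make, was at 12.7 CPM in the control, 53.4 in FL_IR and 1422 in dHep_IR, 26.6-fold higher than in FL_IR (23.4 to 30.5). It was seen in 2.76% of thinned FL_IR members and 16.5% in dHep_IR (8.43% and 36.9% before thinning), and in 1.11% and 5.11% of thinned T cells (6.67% and 30.7% before). Saa2, a liver acute phase gene near-identical to Saa1, was at 6.43 and 92.9 CPM in these libraries and at 4.91 and 119 in T cells, so its level in members did not exceed that of T cells. Of 21 survival genes 5 were called higher and 0 lower, against 5.41% and 1.38% of all genes, with a median of 0.53 against 0.09. With TMM scaling 4 were higher and 0 lower, against 3.94% and 2.19% of all genes. Bcl2a1a was at 22.1 and 271 CPM and Bcl2a1b at 90.5 and 513, copies of the anti-apoptotic A1 gene that are near-identical, so that the split between them is uncertain. Bcl2l11, the pro-apoptotic Bim, was also higher at 96.3 and 274 CPM. Gsdmd was 5.47-fold higher in dHep_IR (3.84 to 7.89), at 10.3 and 56.3 CPM, and Cdkn1a 2.77-fold higher (2.36 to 3.26).

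Granule genes did not separate the irradiated libraries in the same way. Of 15 secondary granule genes that the rule did not use, 1 was called higher and 1 lower, with a median of 0.25. Of all genes 5.41% were called higher and 1.38% lower. Of 6 stefin and cystatin genes none was called in filtered cells, although 4 were lower and 1 higher with all members. Ly6g was at 428 and 420 CPM, Cxcr2 at 778 and 723, and Csf3r at 577 and 633. Slc2a3, a glucose transporter, was lower in dHep_IR at 300 and 72.6 CPM, 4.13-fold (3.45 to 4.99), as was Padi4, the enzyme that citrullinates histones, at 69.5 and 33.8 CPM. Other genes chosen by size of the ratio were Basp1 (22.1 and 178 CPM), Mmp19 (11.4 and 91.2) and Dock10 (6.86 and 48.4), all higher in dHep_IR.

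Against the control, filtered dHep_IR members had 408 of 4091 genes called higher (9.97%) and 736 lower (18%), with a median of -0.21. Both libraries differ in genotype and exposure, and this comparison shares a library with each of the others. Of 36 interferon-stimulated genes 16 were lower and 2 higher, and of 37 activation genes 11 were lower and 10 higher. With all members 1208 of 5646 genes were higher (21.4%) and 826 lower (14.6%). TMM scaling gave 23.2% and 13.1% with all members and 15.5% and 10.5% with filtered members. Among members with no granule UMI 10% of 2724 genes were called higher and 17.4% lower.

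Within each irradiated library the members formed the low end of a gradient in granule transcripts. As a description of cells the rule itself sorted, Il1b in filtered FL_IR cells fell stepwise from 4533 CPM in cells with no granule UMI to 78.8 in the bin with the most, and in dHep_IR from 5360 to 148. Csf3r went from 782 to 120 CPM in FL_IR and from 918 to 95.7 in dHep_IR. Cd177 had the opposite order, from 259 to 1226 CPM in FL_IR. Retnlg was highest in middle bins, at 48520 CPM in FL_IR, and in dHep_IR it was at 12962 CPM in cells with no granule UMI and 34716 at its highest.

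**Figure D5:**
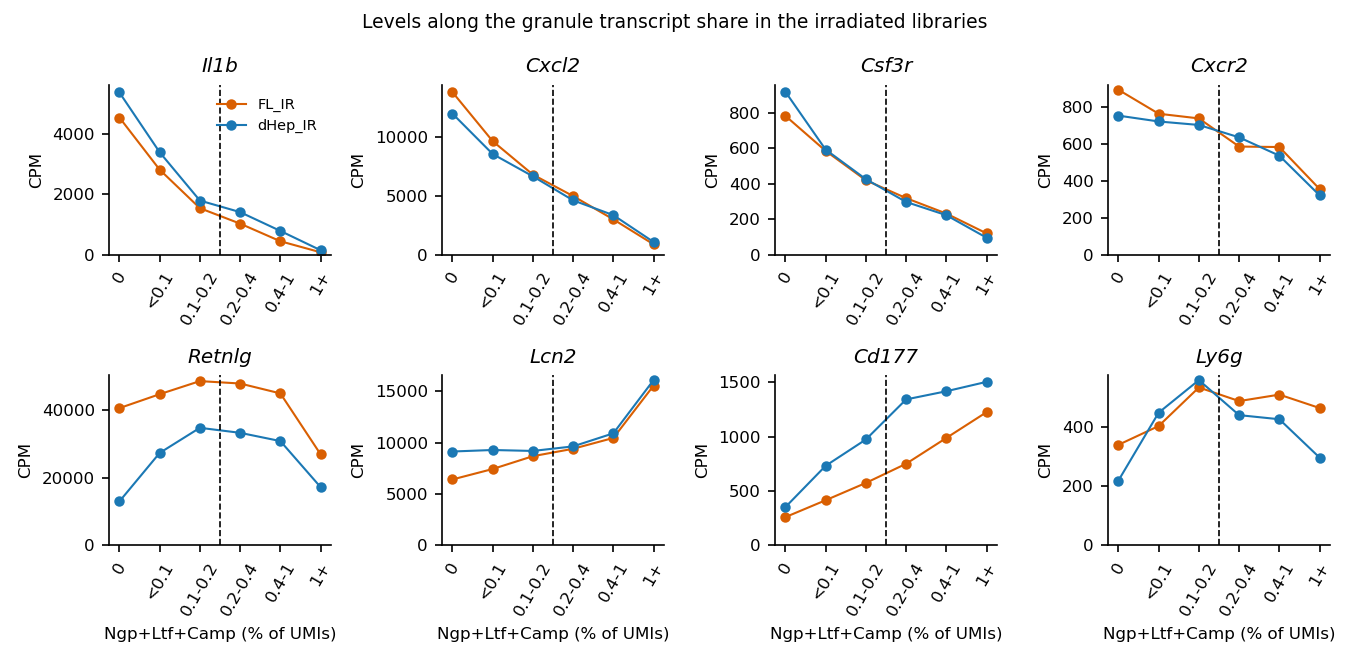
CPM of 8 genes in 6 bins of the percentage of UMIs from Ngp, Ltf and Camp, for filtered FL_IR and dHep_IR cells, with the dashed line at the 0.2% limit between granule-low and granule-rich. Il1b, Cxcl2, Csf3r and Cxcr2 are highest at the left end, and Lcn2 and Cd177 at the right end, in both libraries.

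Granule-low and granule-rich cells of the irradiated libraries are compared as a description, since the rule made the groups. In FL_IR 492 of 7348 genes were called higher in granule-low cells (6.7%) and 255 lower (3.47%). In dHep_IR the calls were 1206 of 7403 (16.3%) and 282 (3.81%). The median log2 ratio over all tested genes was 0.15 in FL_IR and 0.37 in dHep_IR. The calls of this paragraph use the plain total only, and how far they depend on the scaling is not given. Of 7127 genes read in both, 400 were higher in both (5.61%) and 140 lower in both (1.96%). Activation genes were higher in granule-low cells for 29 of 38 tested in FL_IR and 35 of 38 in dHep_IR. Interferon-stimulated genes were higher for 19 of 38 and 29 of 39. Il1b was at 2784 CPM in granule-low and 297 in granule-rich cells of FL_IR, and at 3495 and 256 in dHep_IR. Cybb, the catalytic subunit of the phagocyte oxidase, was at 40.9 against 332 CPM and at 78.2 against 570.

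Members also varied among themselves. Of filtered cells, 40.1% in the control, 86.5% in FL_IR and 77.6% in dHep_IR had no Isg15 UMI, and 12.5%, 58.3% and 66.7% had no Cxcr4 UMI. The interferon-stimulated list took a median of 0.828%, 0.659% and 1.40% of the UMIs of a cell. Within dHep_IR 4.31% of filtered cells had no Retnlg UMI, against 0.162% in FL_IR and 6.03% in the control, whose cells were shallower.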

How the data were processed

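Droplet single-cell RNA data of mouse liver, 3 libraries with 1 per group, were used. The deposited values are counts of UMIs per gene and barcode (31253 genes), made by the authors with CASAVA 1.8, Cell Ranger 6.1.1 and Seurat 4.0.3 on mm10, per the submitters' processing notes; the annotation version was not given in the sources used here. Libraries held 52858425, 59228905 and 78694038 UMIs in 7393, 7265 and 8214 barcodes, of which 6618, 6780 and 7552 cells were kept. UMIs of members were summed per library (876473, 4874692 and 3291924) and given as CPM. With 1 library per group no test or p-value was made, and no sum was treated as a replicate. Ratios have exact conditional 95% intervals that cover counting error only, which is smaller than the spread between cells or animals. Log2 ratios use a prior count of 0.5. Genes with at least 50 UMIs over both libraries were read, and a fold against 0 uses a floor of 3 counts over the group. The members and gene lists were chosen with earlier results of these data known. Genes named beyond the lists were those of the selection rule, Gsdmd, and the 8 highest and 8 lowest called ratios of each comparison with at least 100 UMIs and a UMI in 10% of members of a library; of each list up to 4 genes with the largest ratios and those with the highest CPM; other named genes were chosen after their values were seen. Shares of cells with a UMI were also taken after thinning each cell to 1000 UMIs, which left out 3, 0 and 1 filtered members. Doublets were scored with Scrublet in scanpy 1.11.5 and were not removed; they were 2.42%, 3.47% and 3.85% of kept cells and 6, 10 and 10 members. They included 5 of the 16 monocyte-marker members in FL_IR and 6 of the 89 in dHep_IR. Across all barcodes, pairs of libraries shared 10, 32 and 60 barcodes. TMM factors came from edgeR 4.0.16 in R 4.3.3, and other steps used numpy 2.4.6, scipy 1.17.1 and pandas 2.3.3. Ratios were tested on simulated counts with known folds. Alternatives were the granule limit, the S100 minimum, depth and mitochondrial limits, doublets, cells with UMIs of other types, TMM scaling, the mean of per-cell CPM, gene minimums and the prior count; after seeing the data, removal of the marker cells, members with no granule UMI, admission of Csf1r cells and CPM without S100a8 and S100a9 were added. Gm5483, BC100530, Mx1, Mx2, Clec7a and H2afz were not analysed here, and 1 gene is not reported here. Promoter windows are from RefSeq on GRCm38.p6.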

Additional observations from a re-analysis of the deposited data

How the results depend on the processing

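No paired analysis was possible because each group is 1 library, and no replicate could be left out. Shares of FL_IR moved most with the limit on granule transcripts, those of the control with the treatment of Csf1r cells and of members with UMIs of other types. At 0.1% granule-low cells were 7.30% of kept cells in FL_IR and 3.93% in dHep_IR (26.7% and 18.2% of gated neutrophils), and at 0.5% they were 13.7% and 5.79% (49.97% and 26.8%), with 9 genes in place of 31 called the same way between granule-low and granule-rich cells in all 3 libraries, a count whose control arm is 3 granule-rich cells (median 765 UMIs), or 2 at the 0.5% limit. With at least 5% S100 transcripts the shares of kept cells were 2.81% in the control and 3.81% in dHep_IR, and 18.3% of gated neutrophils in dHep_IR. Leaving out members with UMIs of other cell types gave 2.46%, 7.76% and 3.68% of kept cells, and admitting Csf1r cells with few monocyte UMIs 5.17%, 11.1% and 5.38%. Without the marker cells dHep_IR had 3.38% of kept cells and 17.1% of gated neutrophils, 301 genes higher and 77 lower than FL_IR, and 408 higher than the control, and 540 genes were called between granule-low and granule-rich cells in both irradiated libraries. Members with no granule UMI gave 226 higher and 581 lower in FL_IR against the control, 169 and 54 in dHep_IR against FL_IR, and 273 and 474 in dHep_IR against the control. TMM scaling gave 899 and 479 in the first of these and 775 and 441 in the second; without marker cells it gave 833 and 479, then 219 higher in the second, and 635 and 430 in the third. A minimum of 200 UMIs gave 231 and 411, 494 and 83, and 503 and 425, and a minimum of 20 UMIs 1987 higher in dHep_IR against FL_IR, since other genes are read. The count over all 3 libraries was 79 with the mean of per-cell CPM and 19 with CPM without S100 genes. In dHep_IR against FL_IR, Atf3 turned to log2 ratios of -0.33 without marker cells, -0.10 with no granule UMI and -0.47 with TMM scaling without marker cells, and Fos to -0.31 and, with that scaling, -0.45. In dHep_IR against the control the median of cell cycle genes turned to -0.50 without marker cells and -0.15 with TMM scaling added, Il1rn, Ccl3, Cd274 and Ifit1 to 0.14, 0.57, 0.19 and 0.87 in members with no granule UMI, and Ifit1 to 0.053 with TMM scaling without marker cells; the cause was not tested. Depth limits low genes in the control, whose members held the fewest UMIs.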
